A study of Homo sapiens with 8 samples.

Results

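TGF-β is made, stored, released and sensed by a small set of proteins, and the 10 genes described here encode them: the ligands TGFB1, TGFB2 and TGFB3, the receptors TGFBR1, TGFBR2 and TGFBR3, and the latent TGF-β binding proteins LTBP1, LTBP2, LTBP3 and LTBP4. They were chosen by name, as every RefSeq transcript of the 10 genes in a table of 48175 transcripts from 25162 genes, which gave 24 transcripts. RNA was sequenced from the line HMLE, mammary epithelial cells of human origin that were immortalized, in 8 libraries. All cells had been transduced with a lentiviral shRNA and selected with puromycin at 0.5 µg/mL. The groups were cells with an shRNA against SOX4 given TGF-β for 16 h, the same cells untreated, cells with a scrambled shRNA given TGF-β for 16 h, and the scrambled-shRNA cells untreated, with 2 libraries each. SOX4 is a transcription factor of the HMG-box family. Its knockdown rested on 1 shRNA sequence, so an effect of losing SOX4 and an effect particular to that shRNA cannot be told apart. Nothing in the labels tells whether libraries of one group are separate cultures, so p-values measure only the spread between these libraries, which may be technical.

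A TGF-β ligand leaves the cell as an inactive complex. The mature dimer stays wrapped in its own cleaved propeptide, and the propeptide is usually bonded to an LTBP that anchors the complex to fibrillin and fibronectin fibres in the matrix. Integrins and proteases free the ligand from this store. Freed ligand binds TGFBR2, a kinase that then phosphorylates TGFBR1, which in turn phosphorylates SMAD2 and SMAD3. TGFBR3, or betaglycan, has no kinase activity and presents ligand to TGFBR2, above all TGFB2. In mammary epithelium the pathway is known for halting growth and for driving epithelial to mesenchymal transition.

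Levels are given as FPKM, which scales reads by transcript length and library size. Among the 8 libraries the FPKM scale corresponded to 12.6 M to 16.8 M reads. Many values between 1 and 1000 had lost their decimal mark in the deposited table. They were restored from the whole numbers of reads behind them, with small spread and small effects preferred where several readings remained. Restoration succeeded for TGFB1, TGFB2, TGFBR1, TGFBR2, LTBP2 and LTBP4. TGFB3 and TGFBR3 lay below 1 FPKM, where no decimal mark was lost, although TGFBR3 values below 0.0001 FPKM had damaged exponents that were rebuilt. LTBP1 and LTBP3 could be restored only in part. SOX4 itself stood at 2.37 and 1.88 FPKM in SOX4-shRNA cells with TGF-β and at 0.923 and 1.02 FPKM in the same cells untreated, against 18.7 and 17.6 FPKM in scrambled-shRNA cells with TGF-β and 8.74 and 8.04 FPKM in scrambled-shRNA cells untreated. Every SOX4-shRNA library thus lay below every scrambled one. The basal keratins KRT5 (2886 to 3945 FPKM) and KRT14 (1446 to 2875 FPKM) were abundant in all libraries, as were the epithelial genes EPCAM (55.8 to 114 FPKM) and CDH1 (74.1 to 95.4 FPKM), while the T-cell gene CD3E and the endothelial gene CDH5 were at 0. Of the other markers that could be read, the luminal keratin KRT19 was at or below 0.376 FPKM in all libraries. At the lowest reading its lost marks allow, CD68, a macrophage gene, was at 3.36 to 9.94 FPKM, while the leukocyte gene PTPRC was at or below 0.0167 FPKM.

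Of the genes that could be read, the ubiquitous ligand and the ligand-binding receptor were the most abundant per length. In untreated scrambled-shRNA cells, TGFBR2 averaged 52.2 ± 1.91 FPKM and TGFB1 47.9 ± 9.05 FPKM (SD, n = 2, also below), and the libraries of these genes overlapped. TGFBR1 followed at 11.3 ± 0.39 FPKM. LTBP2 at 7.10 ± 0.20 FPKM, LTBP4 at 7.03 ± 2.23 FPKM and TGFB2 at 5.77 ± 0.60 FPKM came next and did not separate beyond the spread of LTBP4. TGFB3 at 0.761 ± 0.114 FPKM and TGFBR3 at 0.209 ± 0.108 FPKM were the lowest.

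**Figure D1:**
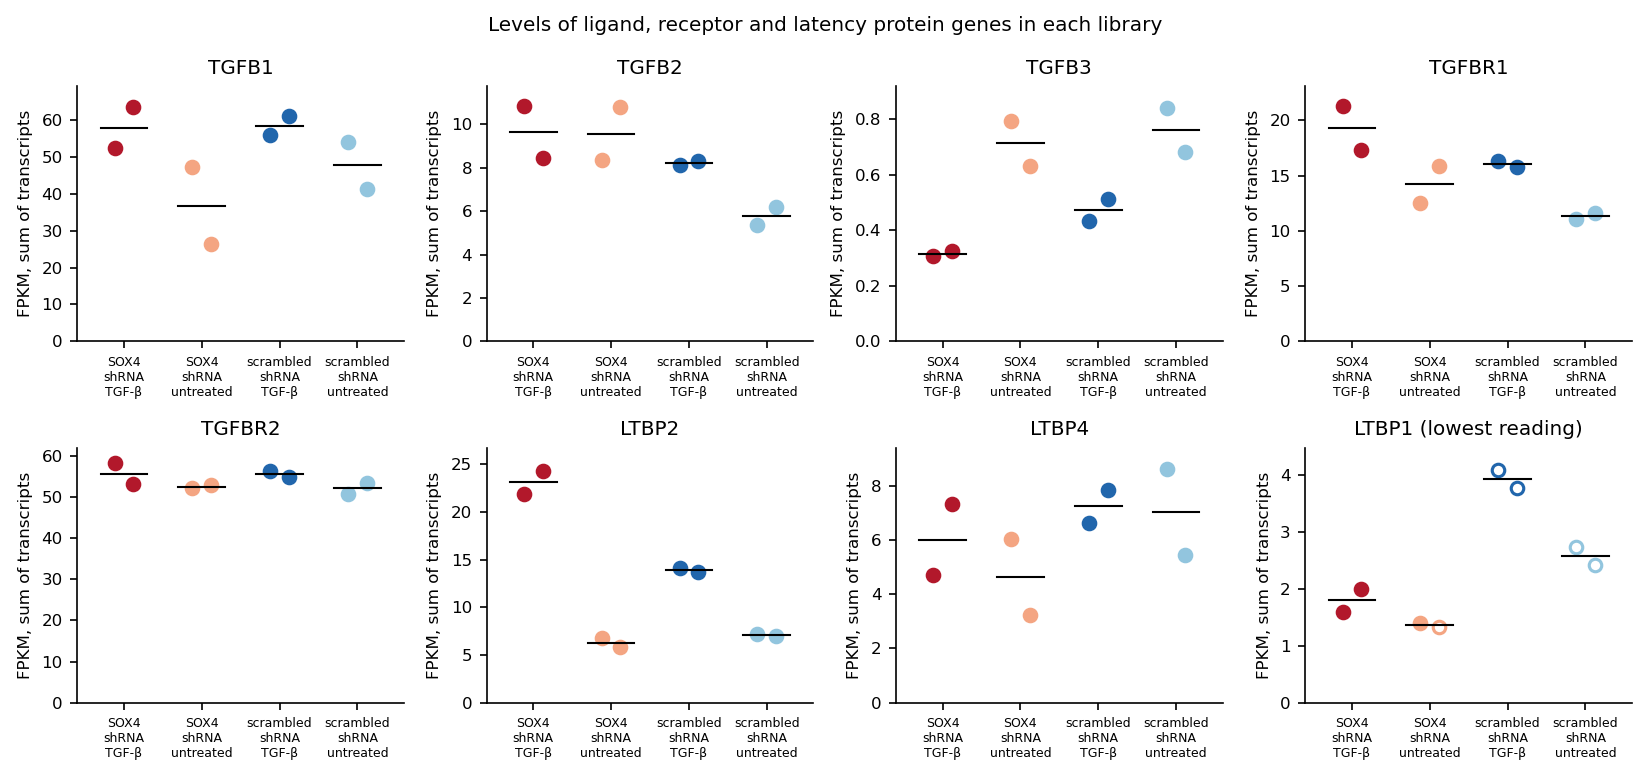
FPKM of each gene, summed over its transcripts, in the 2 libraries of each group (points) with the group mean (line); y axes are linear and start at 0. LTBP2 stands highest in SOX4-shRNA cells with TGF-β (21.9 and 24.3 FPKM), and LTBP1 is drawn at the lowest value the lost decimal marks allow, with open points where a mark was lost.

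TGFB2, TGFBR1 and TGFBR2 differ in one cassette exon between the transcripts that the table lists, and these exons are shown because the results below treat the transcripts separately. Each is written 5′ to 3′ on the plus strand of GRCh37, with the exon in capitals and 10 intronic bases on each side in lower case. The exon of TGFB2 (chr1:218536676-218536759, 84 nt) is present in NM_001135599 and absent from NM_003238, and adds 28 codons to the propeptide. The exon of TGFBR1 (chr9:101894791-101895021, 231 nt) is present in NM_004612 and absent from NM_001130916, and its 77 codons hold the membrane-spanning segment of the receptor. The exon of TGFBR2 (chr3:30664691-30664765, 75 nt) is present in NM_001024847 and absent from NM_003242, and adds 25 codons to the extracellular part.
TGFB2 exon: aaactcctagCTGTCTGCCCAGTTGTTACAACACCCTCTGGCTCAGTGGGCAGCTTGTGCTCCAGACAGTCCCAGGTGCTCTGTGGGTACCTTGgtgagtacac
TGFBR1 exon: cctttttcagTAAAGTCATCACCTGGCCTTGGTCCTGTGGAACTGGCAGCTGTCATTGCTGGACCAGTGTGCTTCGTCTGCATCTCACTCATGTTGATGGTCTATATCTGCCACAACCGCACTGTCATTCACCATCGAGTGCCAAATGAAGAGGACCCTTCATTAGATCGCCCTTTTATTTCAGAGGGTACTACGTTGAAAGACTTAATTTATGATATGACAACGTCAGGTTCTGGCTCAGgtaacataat
TGFBR2 exon: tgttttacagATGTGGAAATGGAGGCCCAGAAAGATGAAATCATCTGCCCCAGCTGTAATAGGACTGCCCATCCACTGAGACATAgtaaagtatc
For TGFB2 and TGFBR1 the whole reads picked out these length differences, 84 and 231 nt, among those that annotated exons allow, while the 75 nt of TGFBR2 was taken from the annotation.

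Differences were tested on log2(FPKM + 1) with limma in 1 fit of 6744 transcripts, all with at least 1 FPKM in at least 2 libraries and restored in every library. A transcript was called at a Benjamini-Hochberg adjusted p under 0.05. This scale understates the change of transcripts near 1 FPKM. Of the 24 transcripts, 9 from 6 genes entered the fit, and the remaining 15 were below the filter or could not be restored. The comparisons ask what TGF-β did in each kind of cell, what the SOX4 shRNA did with and without TGF-β, and whether the response to TGF-β differed between the 2 kinds of cell.

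LTBP2 was the member that passed the test. It encodes a large fibrillin-like glycoprotein of elastic fibres that, unlike the other LTBPs, does not bind latent TGF-β itself. LTBP2 (NM_000428, 8554 nt) is on chromosome 14 at 74964886 to 75079081, minus strand (GRCh37, also below). It stood at 21.9 and 24.3 FPKM in SOX4-shRNA cells with TGF-β, at 6.79 and 5.79 FPKM in untreated SOX4-shRNA cells, at 14.1 and 13.7 FPKM in scrambled-shRNA cells with TGF-β and at 7.24 and 6.96 FPKM in untreated scrambled-shRNA cells. In both kinds of cell the TGF-β libraries lay above the untreated ones without overlap, and the SOX4-shRNA libraries with TGF-β lay above all others. The reads behind these values were 2554 and 3079 in SOX4-shRNA cells with TGF-β, 788 and 751 in the same cells untreated, 1757 and 1572 in scrambled-shRNA cells with TGF-β, and 1015 and 734 in scrambled-shRNA cells untreated, so counting error was small beside the differences.

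TGF-β raised LTBP2 in SOX4-shRNA cells by a log2 fold change of 1.73 ± 0.11 (SE, limma adjusted p = 0.0015). In scrambled-shRNA cells the rise was 0.88 ± 0.11 (limma adjusted p = 0.017). With TGF-β, SOX4-shRNA cells held more LTBP2 than scrambled-shRNA cells by 0.69 ± 0.11 (limma adjusted p = 0.044). Without TGF-β the difference was -0.15 ± 0.11 and was not called (limma adjusted p = 0.55), although the untreated SOX4-shRNA libraries were both below the untreated scrambled ones. The response to TGF-β was larger in SOX4-shRNA cells by 0.84 ± 0.16, with an unadjusted p of 0.0014 that did not pass over all transcripts (limma adjusted p = 0.58). The order of the groups was therefore SOX4-shRNA with TGF-β, scrambled with TGF-β, and then the 2 untreated groups, which are neighbours that the test did not separate.

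The calls of LTBP2 were not equally firm. The rise in SOX4-shRNA cells held without any 1 of the 8 libraries (limma adjusted p from 0.006 to 0.011) and, at the reading used, was lost in 1 other alternative, where the spread came from the 2 compared groups alone (0.061). The rise in scrambled-shRNA cells was lost without any 1 of the 4 scrambled-shRNA libraries (0.11 to 0.18), and the difference between the shRNAs with TGF-β was lost without any 1 library (0.053 to 0.32), while the changes themselves moved little (0.86 to 0.91 and 0.62 to 0.76). Values of LTBP2 also rest on the reading of the lost marks, for which the next most likely reading had a posterior of 0.0002. That posterior itself favours readings with a small spread and small effects.

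**Figure D2:**
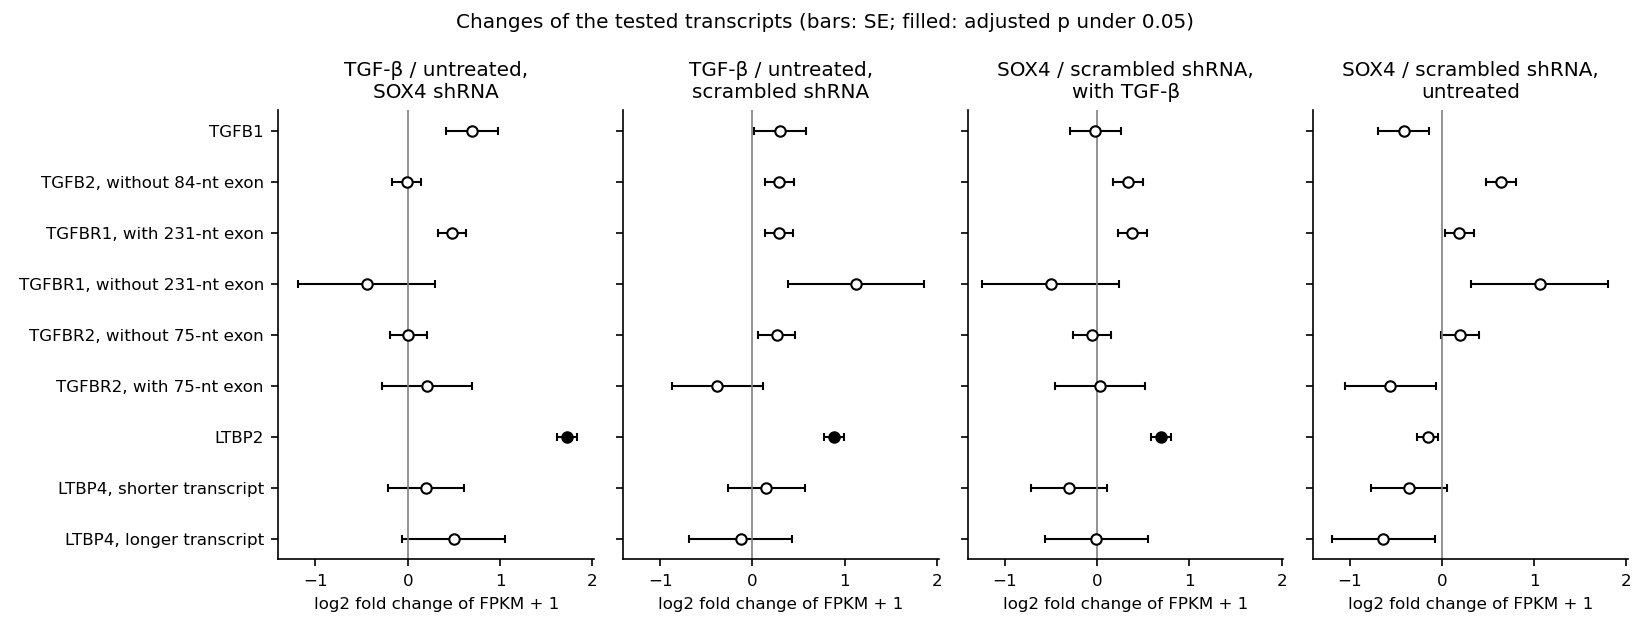
Log2 fold change of FPKM + 1 (x axis) of the 9 tested transcripts in 4 comparisons, with bars of 1 SE and filled points where the limma adjusted p was under 0.05. LTBP2 is the filled point in the first 3 panels, at 1.73, 0.88 and 0.69, and no other transcript is filled.

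Across the fit, 3.56% of transcripts were called higher and 0.934% lower with TGF-β in SOX4-shRNA cells, and 2.86% higher and 1.01% lower in scrambled-shRNA cells. LTBP2 was the 1 of 9 member transcripts called higher in each, and none was called lower. With TGF-β, 0.371% of transcripts were called higher and 1.17% lower in SOX4-shRNA than in scrambled-shRNA cells, and of the 9 only LTBP2 was higher and none was lower. None of the 9 was called between the shRNAs in untreated cells, where 0.371% of transcripts were higher and 1.39% lower, nor in the interaction, where 0.0741% were called. At an unadjusted limma p under 0.05 the members numbered 3 with TGF-β in SOX4-shRNA cells, 1 in scrambled-shRNA cells, 2 between the shRNAs with TGF-β, 1 between them untreated and 1 in the interaction, each out of 9. Over all transcripts the share at that p was 20.8%, 21.1%, 14.9%, 16.4% and 3.13% in the same order. The median change of the 9 transcripts with TGF-β was 0.21 in SOX4-shRNA cells and 0.29 in scrambled-shRNA cells, against -0.04 and -0.03 over all transcripts. Transcripts of 1 gene share reads and are not independent, and membership of the 9 depended on passing the filter.

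When transcripts were summed to genes in the same kind of fit, the 6 genes gave the same calls as the transcripts, for LTBP2 alone. The share of all summed genes called was 6.66% with TGF-β in SOX4-shRNA cells, 6.40% with TGF-β in scrambled-shRNA cells, 3.20% between the shRNAs with TGF-β, 3.79% between them untreated and 0.0793% in the interaction.

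The ligand genes did not pass the test in any comparison. TGFB1 (chromosome 19 at 41807492 to 41859827, minus strand), the main TGF-β of most epithelia, is represented by NM_000660. It stood at 52.5 and 63.6 FPKM in SOX4-shRNA cells with TGF-β, at 47.3 and 26.3 FPKM in the same cells untreated, at 56.1 and 61.1 FPKM in scrambled-shRNA cells with TGF-β and at 54.3 and 41.5 FPKM in scrambled-shRNA cells untreated. All TGF-β libraries of a kind of cell lay above its untreated ones, but the untreated pairs were wide apart, the lowest being replicate 2 of the SOX4-shRNA cells. The change with TGF-β was 0.69 ± 0.28 in SOX4-shRNA cells (limma adjusted p = 0.23) and 0.30 ± 0.28 in scrambled-shRNA cells (limma adjusted p = 0.60). Leaving out 1 library at a time moved the value in SOX4-shRNA cells between 0.28 and 1.10. Between the shRNAs the differences were -0.02 ± 0.28 with TGF-β and -0.42 ± 0.28 without, neither of them called (limma adjusted p = 0.99 and 0.53).

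TGFB2 (chromosome 1 at 218518678 to 218617961, plus strand) encodes the ligand that needs TGFBR3 most. Its transcript without the 84-nt exon, NM_003238, stood at 10.5 and 8.46 FPKM in SOX4-shRNA cells with TGF-β, at 8.37 and 10.8 FPKM in the same cells untreated, at 7.51 and 7.04 FPKM in scrambled-shRNA cells with TGF-β and at 5.34 and 6.19 FPKM in scrambled-shRNA cells untreated. For this transcript all 4 SOX4-shRNA libraries lay above all 4 scrambled ones. The difference between the shRNAs was 0.64 ± 0.16 in untreated cells, with an unadjusted p of 0.0064 that did not pass (limma adjusted p = 0.12), and 0.33 ± 0.16 with TGF-β (limma adjusted p = 0.41). Summed over its transcripts, TGFB2 averaged 9.64 ± 1.68 FPKM in SOX4-shRNA cells with TGF-β and 9.58 ± 1.71 FPKM in the same cells untreated, against 8.22 ± 0.13 FPKM in scrambled-shRNA cells with TGF-β and 5.77 ± 0.60 FPKM in scrambled-shRNA cells untreated. The change of this sum with TGF-β was 0.01 ± 0.16 in SOX4-shRNA cells and 0.45 ± 0.16 in scrambled-shRNA cells, neither of them called (limma adjusted p = 0.99 and 0.15), nor was their difference (-0.44 ± 0.23, limma adjusted p = 1.0). Between the shRNAs the sum differed by 0.64 ± 0.16 untreated and 0.20 ± 0.16 with TGF-β, and neither was called (limma adjusted p = 0.085 and 0.64). The lowest SOX4-shRNA sum, 8.37 FPKM untreated, was close to the highest scrambled-shRNA sum, 8.31 FPKM with TGF-β.

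The TGFB2 transcript with the 84-nt exon, NM_001135599, was assigned 0.623 and 1.27 FPKM in scrambled-shRNA cells with TGF-β, which was 7.67% and 15.3% of the gene. In SOX4-shRNA cells with TGF-β it was 0.330 FPKM in replicate 1, or 3.05% of the gene, and under 0.0001 FPKM in replicate 2. In the 4 untreated libraries it was at about 0.0001 FPKM or below. It was thus assigned at least 0.330 FPKM in 3 of the 4 TGF-β libraries and in none of the 4 untreated ones. Whole reads were known only for the sum of the transcripts, so these values do not show whether the exon itself was read. NM_001135599 did not reach the filter. In a fit with no filter its change with TGF-β in scrambled-shRNA cells was 0.94 ± 0.23 (limma adjusted p = 0.23) and its difference between the shRNAs with TGF-β was -0.74 ± 0.23 (limma adjusted p = 0.45). Neither was called, where 0.985% and 0.661% of all transcripts were. A neighbouring transcript, TGFB2-OT1, shares 1371 exonic bases with TGFB2 on the same strand, and TGFB2-AS1 shares 701 on the opposite strand, so part of the reads cannot be assigned with certainty.

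TGFB3 (NM_003239, chromosome 14 at 76424440 to 76449354, minus strand) was the rarest ligand. It had 0.308 and 0.324 FPKM in SOX4-shRNA cells with TGF-β, 0.796 and 0.633 FPKM in the same cells untreated, 0.434 and 0.514 FPKM in scrambled-shRNA cells with TGF-β, and 0.842 and 0.681 FPKM in scrambled-shRNA cells untreated. The TGF-β libraries lay below the untreated ones in both kinds of cell. These levels rest on 14 and 16 reads in SOX4-shRNA cells with TGF-β, 36 and 32 in the same cells untreated, 21 and 23 in scrambled-shRNA cells with TGF-β, and 46 and 28 in scrambled-shRNA cells untreated. TGFB3 was below the filter. In a fit with no filter its change with TGF-β was -0.38 ± 0.10 in SOX4-shRNA cells and -0.26 ± 0.10 in scrambled-shRNA cells, and neither was called (limma adjusted p = 0.32 and 0.58), where 1.10% and 0.985% of all transcripts were.

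The receptor genes showed small differences that did not pass the test. TGFBR1 (chromosome 9 at 101866320 to 101916474, plus strand) encodes the signalling kinase also called ALK5. Its transcript with the 231-nt exon, NM_004612, stood at 19.98 and 17.2 FPKM in SOX4-shRNA cells with TGF-β, at 11.7 and 14.4 FPKM in the same cells untreated, at 12.5 and 15.7 FPKM in scrambled-shRNA cells with TGF-β and at 11.04 and 11.6 FPKM in scrambled-shRNA cells untreated. The SOX4-shRNA libraries with TGF-β lay above the other 6. The change with TGF-β was 0.48 ± 0.16 in SOX4-shRNA cells and 0.29 ± 0.16 in scrambled-shRNA cells, and neither was called (limma adjusted p = 0.15 and 0.36). With TGF-β, SOX4-shRNA cells were higher than scrambled-shRNA cells by 0.38 ± 0.16, which was not called either (limma adjusted p = 0.32).

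Summed over both transcripts, TGFBR1 averaged 19.3 ± 2.84 FPKM in SOX4-shRNA cells with TGF-β and 14.2 ± 2.37 FPKM in the same cells untreated, against 16.0 ± 0.39 FPKM in scrambled-shRNA cells with TGF-β and 11.3 ± 0.39 FPKM in scrambled-shRNA cells untreated. The sums with TGF-β lay above those without in each kind of cell, by 0.42 ± 0.15 in SOX4-shRNA cells and 0.47 ± 0.15 in scrambled-shRNA cells (limma adjusted p = 0.15 and 0.11). The transcript that lacks the membrane-spanning exon, NM_001130916, was erratic. It took 6.15% and 0.22% of the gene in SOX4-shRNA cells with TGF-β, 6.28% and 9.32% in the same cells untreated, 23.4% and 0.02% in scrambled-shRNA cells with TGF-β, and 0.004% and 0.17% in scrambled-shRNA cells untreated. The highest share and one close to 0 thus stood in the same group, and no change of this transcript was called.

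TGFBR2 (chromosome 3 at 30648093 to 30735634, plus strand), the receptor that binds ligand first, was the most even member. Its 2 transcripts together had 58.2 and 53.1 FPKM in SOX4-shRNA cells with TGF-β, 52.2 and 52.9 FPKM in the same cells untreated, 56.3 and 54.9 FPKM in scrambled-shRNA cells with TGF-β, and 50.8 and 53.5 FPKM in scrambled-shRNA cells untreated. The groups overlapped in both comparisons between the shRNAs, and the TGF-β libraries lay above the untreated ones by a narrow margin in each kind of cell. Changes of the sum were 0.08 and 0.09 with TGF-β in SOX4-shRNA and scrambled-shRNA cells, and -0.00 and 0.01 between the shRNAs with and without TGF-β, each ± 0.10 (SE), and none was called. The transcript with the 75-nt exon, NM_001024847, took 10.4% and 30.01% of the gene in SOX4-shRNA cells with TGF-β, 12.5% and 20.7% in the same cells untreated, 15.5% and 19.7% in scrambled-shRNA cells with TGF-β, and 35.9% and 17.1% in scrambled-shRNA cells untreated. These shares overlapped between all groups. The reading of the TGFBR2 values had a posterior of 0.9886, the lowest among the tested members.

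TGFBR3 (chromosome 1 at 92145900 to 92371892, minus strand) was nearly silent. Its 4 transcripts summed to 0.0469 and 0.108 FPKM in SOX4-shRNA cells with TGF-β, 0.153 and 0.222 FPKM in the same cells untreated, 0.110 and 0.128 FPKM in scrambled-shRNA cells with TGF-β, and 0.133 and 0.286 FPKM in scrambled-shRNA cells untreated. In both kinds of cell the TGF-β libraries lay below the untreated ones, narrowly in scrambled-shRNA cells (0.128 against 0.133 FPKM). None of the 4 transcripts reached the filter. In a fit with no filter none of their changes with TGF-β was called in SOX4-shRNA or scrambled-shRNA cells, where 1.10% and 0.985% of all transcripts were. The RNA of the co-receptor was therefore well below that of TGFBR1 and TGFBR2 in every library.

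**Figure D3:**
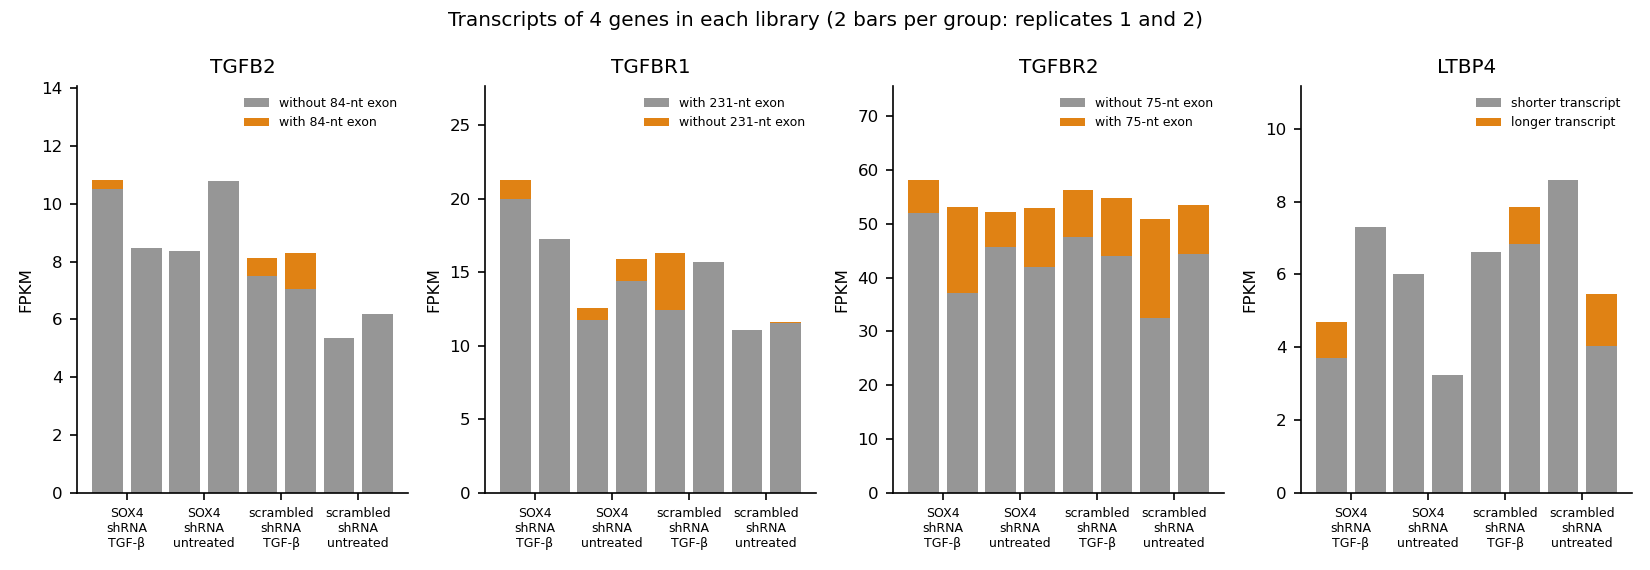
FPKM of the transcripts of TGFB2, TGFBR1, TGFBR2 and LTBP4 in each library, stacked from 0, with the 2 libraries of a group side by side. The orange transcript varies between replicates of one group, as for TGFBR1 in scrambled-shRNA cells with TGF-β (23.4% and 0.02% of the gene), while the total height varies less.

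Among the latency proteins, LTBP1 (chromosome 2 at 33172020 to 33624576, plus strand) is a main carrier of latent TGF-β. Unlike LTBP2 it was lower, as a sum over transcripts, in SOX4-shRNA than in scrambled-shRNA cells with TGF-β. Of its 5 transcripts, NM_001166265 and NM_001166266 had lost marks in some libraries that whole reads did not settle. The sum over transcripts was 1.60 and 1.99 FPKM in SOX4-shRNA cells with TGF-β, with every value intact. In scrambled-shRNA cells with TGF-β it was at least 4.08 and 3.77 FPKM, since any other reading of the lost marks is higher. In untreated SOX4-shRNA cells the sum was 1.39 FPKM in replicate 1, with every value intact, and 1.32 FPKM, 13.1 FPKM or 131 FPKM in replicate 2. In untreated scrambled-shRNA cells it was at least 2.73 and 2.42 FPKM. With TGF-β, the LTBP1 sum was thus lower in both SOX4-shRNA libraries than in both scrambled-shRNA libraries at every reading, and the same held for the 1 untreated SOX4-shRNA library that was intact. Single transcripts differed in direction. With TGF-β, NM_001166266 was the largest part of the scrambled-shRNA sums, at 3.15 and 2.01 FPKM at the lowest reading. In SOX4-shRNA cells with TGF-β it had 0.590 and 0.624 FPKM, both intact. NM_001166265 had 0.109 and 0.0675 FPKM in SOX4-shRNA cells against 0.178 and 0.913 FPKM in scrambled-shRNA cells with TGF-β. NM_206943 had 0.166 and 0.382 FPKM in SOX4-shRNA cells against 0.759 and 0.813 FPKM in scrambled-shRNA cells with TGF-β. NM_001166264 went the other way, at 0.613 and 0.820 FPKM against under 0.0001 and 0.0196 FPKM, and NM_000627 was higher in SOX4-shRNA cells too.

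LTBP1 was not in the main set of tested transcripts. In an alternative that sums transcripts for 10762 genes and takes the reading with the least spread where reads do not decide, LTBP1 was lower in SOX4-shRNA than in scrambled-shRNA cells with TGF-β by a log2 fold change of -0.82 ± 0.11 (SE, limma adjusted p = 0.03), where 2.07% of genes were called and 1.58% were called lower. Because that rule favours small spread, this p is no safer than the reading it rests on. The difference in untreated cells was -0.60 ± 0.11 (limma adjusted p = 0.069), and the changes with TGF-β were 0.24 ± 0.11 in SOX4-shRNA cells and 0.46 ± 0.11 in scrambled-shRNA cells (limma adjusted p = 0.33 and 0.096). None of these 3 was called, in comparisons where 2.31%, 4.0% and 3.71% of genes were. In the same alternative LTBP2 had an adjusted p of 0.05 between the shRNAs with TGF-β, at the threshold and not called.

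LTBP3 (chromosome 11 at 65306030 to 65326401, minus strand) binds latent TGF-β ligands, and 2 of its 3 transcripts could not be read with certainty. At the lowest reading the gene summed to 1.95 and 2.97 FPKM in SOX4-shRNA cells with TGF-β, 3.06 and 1.90 FPKM in the same cells untreated, 2.39 and 2.501 FPKM in scrambled-shRNA cells with TGF-β, and 2.68 and 2.47 FPKM in scrambled-shRNA cells untreated. At the next reading all libraries lay between 15.9 and 25.9 FPKM. The groups overlapped at either reading, and no difference of LTBP3 was called in the alternative with gene sums.

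LTBP4 (chromosome 19 at 41098789 to 41135723, plus strand) is known for elastic fibre assembly and binds latent TGFB1 only weakly. Its transcripts summed to 4.69 and 7.32 FPKM in SOX4-shRNA cells with TGF-β, 6.02 and 3.22 FPKM in the same cells untreated, 6.63 and 7.85 FPKM in scrambled-shRNA cells with TGF-β, and 8.60 and 5.45 FPKM in scrambled-shRNA cells untreated. Replicates lay far apart, and the groups overlapped in all 4 comparisons. Changes of the sum were 0.34 ± 0.31 and 0.06 ± 0.31 with TGF-β in SOX4-shRNA and scrambled-shRNA cells, and -0.26 ± 0.31 and -0.53 ± 0.31 between the shRNAs with and without TGF-β, and none was called. The longer transcript, NM_003573, was assigned 0.995, 1.02 and 1.41 FPKM in 1 library of each of 3 groups, and under 0.001 FPKM in the other 5.

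Of 22 genes whose products mature, store or release the ligand, 7 entered the fit. With TGF-β 3 were called higher in each kind of cell and none lower, while 1 was called lower between the shRNAs with TGF-β and 3 without. Over all transcripts 3.56% and 2.86% were called higher with TGF-β in SOX4-shRNA and scrambled-shRNA cells. Between the shRNAs 1.17% were lower with TGF-β and 1.39% without. The medians of the 7 were 0.33 and 0.40 with TGF-β in SOX4-shRNA and scrambled-shRNA cells, and -0.32 and -0.59 between the shRNAs with and without TGF-β, where the medians of all transcripts were -0.04, -0.03, 0.01 and -0.01. PLAU, the urokinase that activates plasmin, averaged 536 ± 47.2 FPKM in SOX4-shRNA cells with TGF-β and 114 ± 8.85 FPKM in the same cells untreated, against 722 ± 9.71 FPKM in scrambled-shRNA cells with TGF-β and 206 ± 6.21 FPKM in scrambled-shRNA cells untreated. It rose with TGF-β by 2.22 ± 0.10 in SOX4-shRNA cells and by 1.81 ± 0.10 in scrambled-shRNA cells (limma adjusted p = 0.00028 and 0.00088). Between the shRNAs PLAU was lower by -0.84 ± 0.10 in untreated cells (limma adjusted p = 0.016), and the difference with TGF-β was -0.43 ± 0.10 (limma adjusted p = 0.11).

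FBN1 encodes fibrillin, the microfibril protein to which LTBPs attach. It stood at 1.44 and 1.61 FPKM in SOX4-shRNA cells with TGF-β, at 1.05 and 0.959 FPKM in the same cells untreated, at 7.19 and 7.33 FPKM in scrambled-shRNA cells with TGF-β and at 3.84 and 4.60 FPKM in scrambled-shRNA cells untreated. All SOX4-shRNA libraries were below all scrambled ones, by -1.71 ± 0.13 with TGF-β and -1.38 ± 0.13 untreated (limma adjusted p = 0.0025 and 0.0059). TGF-β raised FBN1 by 0.67 ± 0.13 in scrambled-shRNA cells (limma adjusted p = 0.045). Its change in SOX4-shRNA cells was 0.33 ± 0.13 and was not called (limma adjusted p = 0.20), and the difference between these responses was not called either (-0.33 ± 0.18, limma adjusted p = 1.0).

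MMP14, a membrane-anchored metalloprotease that cuts matrix and latency proteins, rose with TGF-β by 1.40 ± 0.11 in SOX4-shRNA cells, to 188 ± 13.8 FPKM against 70.7 ± 8.54 FPKM untreated. In scrambled-shRNA cells its rise was 0.95 ± 0.11, to 218 ± 5.31 FPKM against 112 ± 2.73 FPKM untreated (limma adjusted p = 0.0026 and 0.015). Untreated SOX4-shRNA cells had less MMP14 than untreated scrambled-shRNA cells, by -0.66 ± 0.11 (limma adjusted p = 0.048), a call lost with gene sums at all readings (limma adjusted p = 0.054). ITGB5, a partner of the αv integrin, rose by 0.96 ± 0.14 in SOX4-shRNA cells with TGF-β, to 64.7 ± 7.43 FPKM against 32.8 ± 5.36 FPKM untreated (limma adjusted p = 0.019). In scrambled-shRNA cells ITGB5 had 65.5 ± 2.96 FPKM with TGF-β against 49.5 ± 1.73 FPKM untreated. That change of 0.40 ± 0.14 was not called (limma adjusted p = 0.18), nor was the difference between the 2 responses (0.57 ± 0.20). THBS1, a matricellular activator of latent TGF-β, averaged 1764 ± 131 FPKM in SOX4-shRNA cells with TGF-β and 1374 ± 62.5 FPKM in scrambled-shRNA cells with TGF-β, values that were intact, against 1058 ± 17.8 FPKM, also intact, in untreated scrambled-shRNA cells. The untreated SOX4-shRNA cells had 971 ± 3.99 FPKM at the reading taken, where lower readings are possible, and THBS1 was not among the restored transcripts.

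With gene sums at all readings, the alternative that also took in LTBP1, 14 of the 22 genes were tested. Of these 5 were higher with TGF-β in SOX4-shRNA cells and 4 in scrambled-shRNA cells, while 2 were lower between the shRNAs with TGF-β and 3 without. FN1 and THBS1, which lie outside the transcripts restored by reads and were picked out after their values were seen, were among them. FN1 encodes fibronectin, a matrix protein on which LTBP1 is laid down. Its main transcript, NM_002026, was read at 968 and 1106 FPKM in SOX4-shRNA cells with TGF-β, at 282 and 275 FPKM in the same cells untreated, at 2239 and 2193 FPKM in scrambled-shRNA cells with TGF-β and at 807 and 920 FPKM in scrambled-shRNA cells untreated. The mark was intact in both scrambled-shRNA libraries with TGF-β and in replicate 2 of the SOX4-shRNA cells with TGF-β, and in the other 5 lower readings are possible. The summed FN1 rose with TGF-β by 1.82 ± 0.09 in SOX4-shRNA cells and by 1.36 ± 0.09 in scrambled-shRNA cells (limma adjusted p = 0.0011 and 0.0031). It was lower in SOX4-shRNA than in scrambled-shRNA cells by -1.10 ± 0.09 with TGF-β and -1.56 ± 0.09 untreated (limma adjusted p = 0.0064 and 0.002). THBS1 rose in SOX4-shRNA cells by 0.86 ± 0.07 (limma adjusted p = 0.0051), and its change in scrambled-shRNA cells was 0.38 ± 0.07 (limma adjusted p = 0.054). These p-values too rest on a choice of reading that favours small spread.

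**Figure D4:**
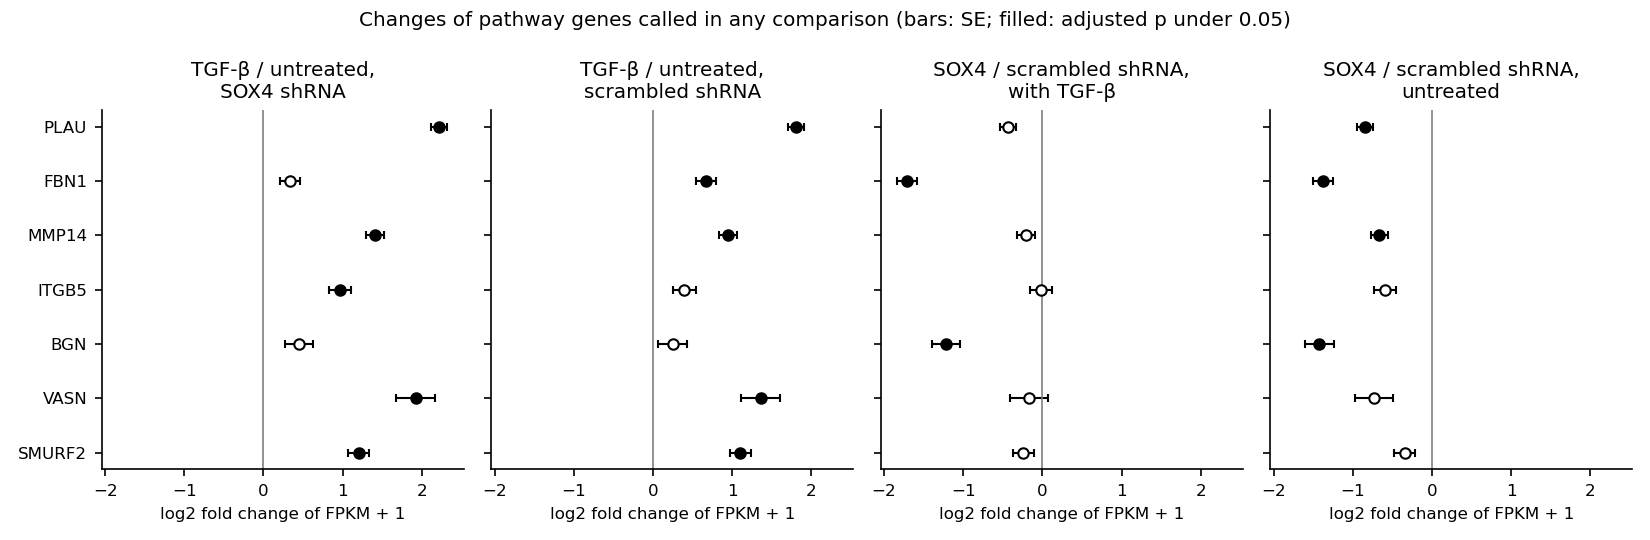
Log2 fold change of FPKM + 1 (x axis) of the 7 pathway genes outside the set that were called in at least 1 comparison, with bars of 1 SE and filled points where the limma adjusted p was under 0.05. PLAU, MMP14, VASN and SMURF2 are filled in both comparisons of TGF-β with untreated cells, and FBN1 and BGN are filled, at negative values, in both comparisons of the shRNAs.

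Of 13 co-receptor and ligand-binding genes, 4 entered the fit. With TGF-β 1 rose in each kind of cell, where 3.56% and 2.86% of all transcripts did in SOX4-shRNA and scrambled-shRNA cells. Another 1 was lower between the shRNAs with and without TGF-β, where 1.17% and 1.39% of all transcripts were. The gene that rose was VASN, a membrane glycoprotein that traps TGF-β, which averaged 13.8 ± 3.16 FPKM in SOX4-shRNA cells with TGF-β and 2.94 ± 1.08 FPKM in the same cells untreated, against 15.5 ± 1.82 FPKM in scrambled-shRNA cells with TGF-β and 5.45 ± 0.96 FPKM in scrambled-shRNA cells untreated. Its change was 1.92 ± 0.24 in SOX4-shRNA cells and 1.36 ± 0.24 in scrambled-shRNA cells (limma adjusted p = 0.013 and 0.039), and the call in scrambled-shRNA cells was lost with gene sums at all readings (limma adjusted p = 0.053). The lower gene was BGN, or biglycan, a matrix proteoglycan that binds TGF-β, at 4.37 and 5.0001 FPKM in SOX4-shRNA cells with TGF-β and 3.88 and 2.56 FPKM in the same cells untreated, against 11.7 and 12.8 FPKM in scrambled-shRNA cells with TGF-β and 11.1 and 9.32 FPKM in scrambled-shRNA cells untreated. The difference was -1.22 ± 0.18 with TGF-β and -1.42 ± 0.18 untreated (limma adjusted p = 0.033 and 0.019). Medians of the 4 genes were 0.56 and 0.29 with TGF-β in SOX4-shRNA and scrambled-shRNA cells, and -0.14 and -0.40 between the shRNAs with and without TGF-β.

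Of 19 SMAD and feedback genes, 6 entered the fit. Of these 1 was called, higher with TGF-β in each kind of cell, against the same 3.56% and 2.86% of all transcripts. SMURF2, a ubiquitin ligase that targets the TGF-β receptors, averaged 44.1 ± 6.16 FPKM in SOX4-shRNA cells with TGF-β and 18.6 ± 2.04 FPKM in the same cells untreated, against 52.2 ± 3.17 FPKM in scrambled-shRNA cells with TGF-β and 23.8 ± 0.41 FPKM in scrambled-shRNA cells untreated. It rose by 1.20 ± 0.13 in SOX4-shRNA cells and 1.10 ± 0.13 in scrambled-shRNA cells (limma adjusted p = 0.0082 and 0.015). The medians of this list were 0.05, 0.08, 0.15 and 0.19 in the same 4 comparisons. No gene of the 3 lists was called in the interaction. Of the 16 calls of these genes in the 4 comparisons of the main fit, 5 held without any 1 of the 8 libraries. They were those of PLAU with TGF-β in both kinds of cell, of MMP14 and SMURF2 with TGF-β in SOX4-shRNA cells and of FBN1 between the shRNAs with TGF-β. The rise of FBN1 in scrambled-shRNA cells and the lower MMP14 of untreated SOX4-shRNA cells were lost without any 1 of the 8 (limma adjusted p from 0.064 to 0.27 and from 0.061 to 0.23). The lower FBN1 of untreated SOX4-shRNA cells was lost without replicate 2 of the untreated scrambled-shRNA cells (limma adjusted p = 0.051), and the rise of VASN in SOX4-shRNA cells was lost without replicate 2 of either SOX4-shRNA group (up to 0.069). The rises of MMP14 and SMURF2 in scrambled-shRNA cells were lost without any 1 of the 4 scrambled-shRNA libraries (up to 0.16 and 0.17). The other 5 calls, of PLAU and BGN between the shRNAs, ITGB5 in SOX4-shRNA cells and VASN in scrambled-shRNA cells, were lost in 5 or 6 of 8 omissions, among them each of the 4 scrambled-shRNA libraries (up to 0.25).

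RNA from bulk libraries cannot tell fewer cells of a type from less RNA per cell. Of 5 fibroblast markers, 4 could be read, and their summed level was 56.9 to 69.0 FPKM in SOX4-shRNA cells with TGF-β and 38.9 to 51.3 FPKM in the same cells untreated, against 87.1 to 94.6 FPKM in scrambled-shRNA cells with TGF-β and 72.7 to 81.3 FPKM in scrambled-shRNA cells untreated. This sum was nearly all THY1 (37.8 to 90.5 FPKM), with COL3A1 at 0.88 to 4.11 FPKM and PDGFRA and LUM at or below 0.105 FPKM. It was lower in SOX4-shRNA cells with and without TGF-β, as FBN1 and BGN were, while the LTBP1 sum was lower at every reading only with TGF-β. The part of the fibroblast sum in those results was not tested. The 3 epithelial markers that could be read summed to 155 to 195 FPKM in SOX4-shRNA cells with TGF-β and 175 to 190 FPKM in the same cells untreated, against 147 to 150 FPKM in scrambled-shRNA cells with TGF-β and 146 to 153 FPKM in scrambled-shRNA cells untreated. The 2 basal markers that could be read, KRT5 and KRT14, summed to 5723 to 5826 FPKM in SOX4-shRNA cells with TGF-β and 4387 to 5102 FPKM in the same cells untreated, against 5891 to 5984 FPKM in scrambled-shRNA cells with TGF-β and 5345 to 6051 FPKM in scrambled-shRNA cells untreated. In SOX4-shRNA cells the epithelial sum was thus higher and the basal sum lower than in scrambled-shRNA cells, with and without TGF-β, and the part of these sums in the results was not tested. Endothelial and adipocyte markers summed to at most 0.185 and 0.118 FPKM.

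Finally, genes whose pattern over the 8 libraries was most like that of a member were listed by Pearson's r on log2(FPKM + 1), among transcripts with at least 0.5 of the member's range of group means. The libraries share their groups and scaling, so r is a description. Of 967 transcripts compared with LTBP2, the nearest were GADD45B, a stress and TGF-β response gene (r = 0.992), ADAMTS15, a secreted metalloprotease (r = 0.986), and PIM1, a serine/threonine kinase (r = 0.986). GADD45B stood at 49.2 and 53.7 FPKM in SOX4-shRNA cells with TGF-β and 21.3 and 16.8 FPKM in the same cells untreated, against 37.6 and 37.3 FPKM in scrambled-shRNA cells with TGF-β and 23.1 and 20.3 FPKM in scrambled-shRNA cells untreated. As for LTBP2, its 2 highest libraries were the SOX4-shRNA ones with TGF-β. For TGFB1 the nearest of 3973 transcripts were TESK1 (r = 0.981), TPST2 (r = 0.977) and RUSF1 (r = 0.977), all lowest in replicate 2 of the untreated SOX4-shRNA cells, as TGFB1 was. For the TGFBR1 transcript without the membrane-spanning exon, the nearest of 2123 were FCHO2 (r = 0.904), IL17RA (r = 0.827) and UBE2D2 (r = 0.780), all highest in replicate 1 of the scrambled-shRNA cells with TGF-β.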

How the data were processed

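Per the labels' protocols, a stranded kit with ribosomal depletion was used on total RNA and sequenced as single reads of 75 nt, while another label names polyA RNA. TopHat2 2.0.9, Cufflinks 2.2.1 and Cuffdiff on hg19 are named per the submitters' processing notes. Strand setting and scaling between libraries: not given in the sources used here. The deposited table holds other values than counts: from the tools and the values they were taken as FPKM of RefSeq transcripts, with 47093 of 48175 matched to a symbol. The decimal mark was lost in 34.1% of cells, which leaves up to 3 readings that differ by factors of 10, and 13.9% of cells, all below 0.0001 FPKM, had damaged exponents.

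Marks were restored by requiring whole reads, within 0.003 reads, for 1 transcript length per gene, or for the sum over a gene's transcripts. A reading 10 times higher can also give whole reads, so readings were weighed further (posterior of at least 0.95). The weights favoured a small replicate spread, a usual level, and small effects of TGF-β, of the shRNA and of their interaction. These are the effects tested, so posteriors and p-values of the main fit are not free of that choice. The restoration read 5363 of 5906 1-transcript genes and 981 of 2516 2-transcript genes. TGFB2, TGFBR2 and LTBP4 were solved by a search of their own, chosen after seeing that the general search left them open. On simulated data 292 of 300 1-transcript genes were restored, 2 of them wrongly, and 1 of 300 random decoys. For 2-transcript genes, the kind to which TGFBR1 belongs, 43 of 60 were restored, 0 of them wrongly, and 0 of 60 decoys. The separate search used for TGFB2, TGFBR2 and LTBP4 was not tested in this way. Whether the spread and effects in these data matched those of the 8 libraries was not tested. Whole reads in the fitted 1-transcript genes came to between 4.37 M and 5.81 M in a library (median gene: 348.5 to 464.5 reads).

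The test was limma 3.58.1 (R 4.3.3, trended prior) on log2(FPKM + 1), with the 4 groups in 1 fit with 4 residual degrees of freedom. The design foresaw all readable transcripts. Members and lists were chosen with earlier results of these data known. The rule for names took member transcripts (some given here only within their gene's sum), SOX4, up to 6 called genes a list, and the 3 genes nearest in pattern to the 3 members of widest range. The 3 lists held 22, 13 and 19 genes. Alternatives were 2 pseudocounts, 2 filters, 2 scalings, 2 priors, other levels of summary, a replicate block, the next reading and leaving out each library. Coordinates and exons are from GENCODE 44 on GRCh37, which is hg19. Without a known strand setting, overlaps on the opposite strand make TGFB1 (215 exonic bases with HNRNPUL1), TGFB2, TGFB3 (163), LTBP1 (249), LTBP2 (207), LTBP3 (146) and SOX4 (168) uncertain to that extent.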

Additional observations from a re-analysis of the deposited data

How the results depend on the processing

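Counts of called transcripts depended on the fit, and the 2 libraries per group are the main limit. With TGF-β in SOX4-shRNA cells 303 were called. This became 114 with a replicate block, 13 from the compared groups alone and 83 to 146 without 1 library, and, among alternatives chosen after seeing the data, 200 with all kept transcripts, 540 with voom on whole reads (246 higher and 294 lower, against 240 and 63) and 783 with replicate numbers crossed. With TGF-β in scrambled-shRNA cells 261 were called, against 35 with a replicate block, 404 with gene sums, 16 to 172 without 1 library, and, chosen after seeing the data, 129 with all kept transcripts, 399 with gene sums at all readings and 427 with voom (210 higher and 217 lower, against 193 and 68). Between the shRNAs with TGF-β 104 were called, against 163 with no filter, 24 from the compared groups alone, 32 with a replicate block, 162 with 1 transcript per gene, 181 in 1-transcript genes, 202 with gene sums and 21 to 80 without 1 library, and, chosen after seeing the data, 223 with gene sums at all readings and 178 with voom. Between them untreated 119 were called, against 180, 20, 44, 184, 199, 239 and 31 to 84 in the same order, and 249 and 221 for the added ones. In the interaction 5 were called, against 89 with no filter, 1 in 1-transcript genes, 5 to 9 without 1 library, and, chosen after seeing the data, 15 with all kept transcripts, 37 with gene sums at all readings and 1 with voom. The cause of these shifts was not tested.

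Same-numbered libraries correlated by -0.23 to 0.11 across groups, so the numbers were not taken to pair them. With the replicate block LTBP2 kept its call with TGF-β in SOX4-shRNA cells only. Leaving aside left-out libraries, LTBP2 was called in 15 of 16 alternatives with TGF-β in SOX4-shRNA cells, in 14 with TGF-β in scrambled-shRNA cells (adjusted p of 0.0083 to 0.063 over all 16) and in 10 between the shRNAs with TGF-β. Member transcripts other than LTBP2 were uncalled in the alternatives run, except that TGFBR1 would be called between the shRNAs at its next reading. LTBP1, which had no transcript in the fit, was called between the shRNAs with TGF-β with gene sums at all readings (-0.82). LTBP2 at its next reading (posterior 0.0002) would reverse, to -1.41 with TGF-β in SOX4-shRNA cells, 2.98 between the shRNAs untreated and -2.29 in the interaction. SOX4 at its next reading (posterior 0.0033) would be -1.23 and -2.25 between the shRNAs with and without TGF-β, neither called, and -0.36 with TGF-β in scrambled-shRNA cells.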
